A study of Mus musculus with 18 samples.

Results

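Kupffer cells are the resident macrophages of the liver sinusoids, and a set of 9 genes that mark them or other resident macrophages was followed in metastasis-associated macrophages (MAMs). The genes were Clec4f, Vsig4, Cd5l, Clec1b, Spic, Id1, Id3, Folr2 and Adgre1, chosen by symbol, and 8 of the 9 had a row among the 13759 genes of the macrophage table. Clec1b had no row and was counted as not detected, with no value. The MAMs came from liver metastases (LM) of female C57BL6/J mice aged 8 to 10 weeks, taken 20 days after MC38 cells, a mouse colon adenocarcinoma line, were injected into the spleen. Lineage-negative CD45+CD11b+ cells were sorted as F4/80hi MAMs (F4/80high in the labels) or F4/80int MAMs (F4/80low in the labels), with 3 libraries of each. A second experiment sorted lineage-negative CD45+NKp46+ lymphocytes of the same model from pools of 6 to 8 samples, with 3 libraries each of NK cells (CD49a-CD49b+) and ILC1 (CD49a+CD49b-) of the metastasis-free liver (MFL) and of CD49a-CD49b+ and CD49a+CD49b+ NK cells of LM. The groups used here carried no engineered allele. By the study's methods, the spleen was removed minutes after the injection, and Metacam (meloxicam) was given for pain relief. LM was digested with Liberase and MFL was crushed, so site and dissociation cannot be told apart. The labels tie the MAM replicates to no separate animals or sortings, so p-values measure only the spread between these libraries, which may be technical. Adgre1 and Spi1, which encodes PU.1, were read in all 6 MAM libraries, but Adgre1 is the sorting marker and Spi1 is also expressed by monocytes and dendritic cells, so these genes do not separate macrophages from them.

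Kupffer cells take up bacteria, aged red cells and debris from portal blood. Their identity is kept by signals from sinusoidal endothelium, stellate cells and hepatocytes, among them Notch ligands and BMPs, and by the nuclear receptor LXRα (Nr1h3) and the ETS factors PU.1 and SPI-C. When the niche is emptied, monocytes can enter it and take on much of this program, in which Timd4 comes late. Of the genes studied, Clec4f encodes a galactose-binding lectin confined to Kupffer cells, Clec1b the podoplanin receptor CLEC-2, Vsig4 the complement receptor CRIg, Cd5l a secreted scavenger-like protein of tissue macrophages, and Folr2 the folate receptor beta of many resident macrophages. Id1 and Id3 encode helix-loop-helix proteins that bind no DNA and are targets of BMP signaling, and Id3 is needed for Kupffer cell development. Spic encodes SPI-C, which heme induces in macrophages that recycle iron. Adgre1 encodes F4/80 itself.

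Promoter sequences of 4 genes are shown, Cd5l and Vsig4, which rose in F4/80hi MAMs, and Id3 and Spic, which fell, so that a motif of PU.1 can be set beside the direction of change. RefSeq windows of the 250 bases before the transcription start on GRCm38.p6 were found for 7 of the 9 genes, and Id1 and Adgre1 had none. Capitals mark the PU.1 core GAGGAA or its reverse complement TTCCTC, searched on both strands, and each sequence reads 5′ to 3′ along its gene. The windows are chr3:87357631-87357880 (plus strand) for Cd5l, chrX:96293439-96293688 (minus) for Vsig4, chr4:136143572-136143821 (plus) for Id3 and chr10:88683024-88683273 (minus) for Spic.
Cd5l: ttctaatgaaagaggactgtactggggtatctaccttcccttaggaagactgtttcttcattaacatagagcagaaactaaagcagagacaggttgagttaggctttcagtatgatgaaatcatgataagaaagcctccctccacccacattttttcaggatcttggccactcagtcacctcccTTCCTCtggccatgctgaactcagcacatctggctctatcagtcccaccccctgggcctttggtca
Vsig4: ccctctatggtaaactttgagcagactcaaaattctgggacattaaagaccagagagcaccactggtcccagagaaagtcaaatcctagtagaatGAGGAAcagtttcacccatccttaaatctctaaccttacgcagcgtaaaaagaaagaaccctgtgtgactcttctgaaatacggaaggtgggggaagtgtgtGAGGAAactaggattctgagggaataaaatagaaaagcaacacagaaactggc
Id3: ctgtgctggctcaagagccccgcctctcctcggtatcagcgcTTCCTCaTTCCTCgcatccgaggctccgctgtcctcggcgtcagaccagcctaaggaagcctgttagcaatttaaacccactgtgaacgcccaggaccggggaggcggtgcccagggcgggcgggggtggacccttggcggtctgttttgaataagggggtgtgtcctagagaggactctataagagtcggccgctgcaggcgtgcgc
Spic: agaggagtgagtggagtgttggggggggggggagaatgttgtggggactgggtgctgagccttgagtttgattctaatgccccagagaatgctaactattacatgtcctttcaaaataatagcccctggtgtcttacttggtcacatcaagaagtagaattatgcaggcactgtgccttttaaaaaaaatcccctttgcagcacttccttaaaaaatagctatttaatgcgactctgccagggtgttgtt

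The core was found 1 time in the Cd5l window and 2 times each in those of Vsig4 and Id3, and it was not in the windows of Spic, Clec4f, Clec1b or Folr2. Of all 32851 windows of this length, 23.3% hold it. The SMAD-type sequence GGCGCC, held by 9.59% of all windows, and the MAF half-site TGCTGAC, held by 3.81%, were in none of the members' windows. None of these 3 motifs contains another. The windows with the core belong to genes that rose and to one that fell in F4/80hi MAMs.

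Between F4/80hi and F4/80int MAMs, 4 of the genes rose (Folr2, Vsig4, Adgre1 and Cd5l), 3 fell (Id3, Id1 and Spic) and Clec4f did not pass the test. Calls were made at an adjusted p under 0.1, from the quasi-likelihood test of edgeR adjusted by Benjamini-Hochberg over all 13759 genes. Of all genes tested, 27.8% were called higher and 27.1% lower, 54.9% in all, and the groups did not overlap for 58.4%. The 7 called identity genes did not overlap between the groups, and Clec4f did. The median log2 fold change was 1.92 over the 8 genes and 0.01 over all genes tested. The 4 risen genes and this median include Adgre1, the gene of the sorting marker. The 8 genes ran from -2.49 (Id3) to 4.11 (Folr2), so the median does not describe a shift of the whole set. In bulk libraries, fewer cells of a type and less RNA per cell cannot be told apart. Expression is given as CPM, the share of a library's counts after TMM scaling.

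**Figure D1:**
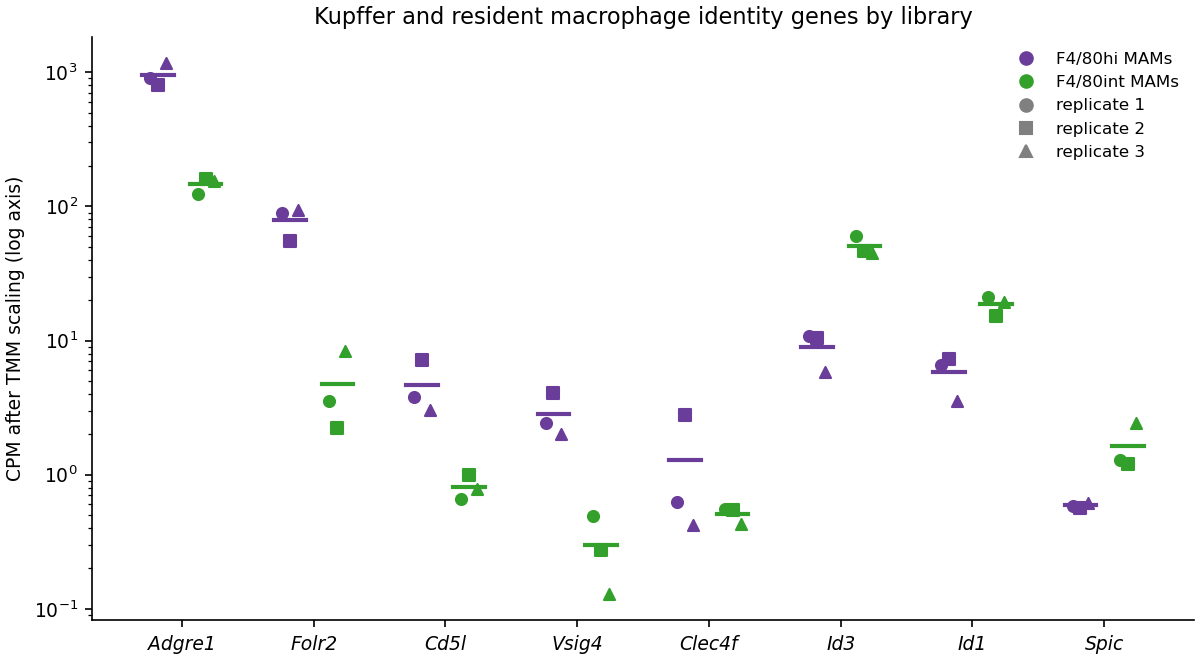
CPM after TMM scaling (log axis) of the 8 identity genes with a row in the macrophage table, in the 3 F4/80hi and 3 F4/80int MAM libraries; symbols mark replicates and lines the group means. The groups do not overlap for any gene but Clec4f, for which replicate 2 at 2.80 CPM is the 1 F4/80hi library that stands apart from the others.

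Adgre1 (chr17:57665573-57790527 on GRCm39, as are the other gene positions) measured the marker used for sorting, so its difference follows the gate and is no separate result. Its expression was 901, 806 and 1167 CPM in F4/80hi replicates 1, 2 and 3, and 124, 160 and 153 CPM in the F4/80int replicates. The transcript thus followed the protein gate in each library. The F4/80hi mean was 958 ± 187 CPM (SD, n = 3) against 146 ± 19.0 CPM, a log2 fold change of 2.71 (SE 0.17, adjusted p = 8.63e-06 by edgeR).

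Folr2 (chr7:101489195-101506401) showed the largest increase among the 8 genes. It measured 89.6, 55.1 and 94.0 CPM in F4/80hi MAMs and 3.55, 2.22 and 8.35 CPM in F4/80int MAMs. Each F4/80hi library was above each F4/80int library, and F4/80int replicate 3 was the highest of its group. The log2 fold change was 4.11 (SE 0.43, adjusted p = 0.000138 by edgeR), which is 17.3-fold, and it was 4.78 without F4/80int replicate 3.

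Vsig4 (chrX:95290807-95337044) and Cd5l (chr3:87265182-87278380) rose from low levels. Vsig4 was counted with 54, 115 and 62 reads in F4/80hi MAMs and 15, 8 and 3 reads in F4/80int MAMs, or 2.43, 4.07 and 2.01 against 0.493, 0.273 and 0.130 CPM. Its log2 fold change was 3.19 (SE 0.49, adjusted p = 0.000978 by edgeR). For Cd5l, 84, 203 and 94 reads stood against 20, 29 and 18, or 3.78, 7.19 and 3.05 against 0.657, 0.990 and 0.778 CPM. The log2 fold change of Cd5l was 2.53 (SE 0.38, adjusted p = 0.000964 by edgeR). Both genes were highest in F4/80hi replicate 2, and both were still called without that library, with log2 fold changes of 2.83 for Vsig4 and 2.07 for Cd5l.

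Clec4f (chr6:83621524-83633169), the gene most confined to Kupffer cells, was low in 5 of the 6 libraries, with 17 reads or fewer. It had 14, 79 and 13 reads in F4/80hi MAMs and 17, 16 and 10 reads in F4/80int MAMs. The 79 reads of F4/80hi replicate 2 (exact Poisson 95% interval 62.5 to 98.5) lay above those of replicates 1 (7.65 to 23.5) and 3 (6.92 to 22.2), intervals that cover counting error only. The log2 fold change was 1.32 (SE 0.69, adjusted p = 0.152 by edgeR). Without F4/80hi replicate 2 it was 0.01 (adjusted p = 0.986), and without F4/80hi replicate 3 it was 1.74 and passed the threshold (adjusted p = 0.0529).

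Id3, Id1 and Spic fell in F4/80hi MAMs. Id3 (chr4:135870808-135873066) measured 10.8, 10.5 and 5.81 CPM in F4/80hi MAMs and 59.9, 46.3 and 45.1 CPM in F4/80int MAMs, a log2 fold change of -2.49 (SE 0.23, adjusted p = 7.17e-05 by edgeR). Id1 (chr2:152566218-152579544) measured 6.62, 7.33 and 3.53 CPM against 21.1, 15.2 and 19.5 CPM, a log2 fold change of -1.68 (SE 0.26, adjusted p = 0.00113 by edgeR). Both Id genes were lowest in F4/80hi replicate 3. Spic (chr10:88510629-88520960) had 13, 16 and 19 reads against 39, 35 and 56, so its fall rests on few reads. Its log2 fold change was -1.45 (SE 0.38, adjusted p = 0.0130 by edgeR).

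Per length of transcript, as TPM computed from the exons of each gene, Adgre1 led both subsets, with means of 1189 TPM in F4/80hi and 159 TPM in F4/80int MAMs. In F4/80hi MAMs it was followed by Folr2 (218), Id3 (22.0), Id1 (14.3), Cd5l (10.1), Vsig4 (8.38), Clec4f (1.54) and Spic (0.624). Neighbors from Id3 to Vsig4 overlapped in range, as did Clec4f and Spic. In F4/80int MAMs the order was Id3 (107), Id1 (39.9), Folr2 (11.1), Cd5l (1.52), Spic (1.15 to 2.18 over its libraries), Vsig4 (0.766) and Clec4f (0.530), and from Cd5l downward neighbors overlapped. Folr2 thus stood above both Id genes in F4/80hi MAMs and below both in F4/80int MAMs, with no overlap of the ranges in either subset.

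A longer list of 14 Kupffer cell genes had 10 with a row, and Kcna2, Pcolce2, Paqr9 and Slc16a9 had none. Among the 10, 5 were called higher in F4/80hi MAMs, 3 lower and 2 were not called, with a median log2 fold change of 0.45. Of all genes tested, 27.8% were called higher and 27.1% lower. Timd4, which encodes the phosphatidylserine receptor Tim4 of long-lived resident macrophages, went against Vsig4 and Folr2. It measured 0.0901, 0.496 and 0.519 CPM in F4/80hi MAMs and 7.29, 8.74 and 9.21 CPM in F4/80int MAMs, a log2 fold change of -4.44 (SE 0.42, adjusted p = 7.49e-05 by edgeR), and -5.35 with limma-voom. Nr1h3 (LXRα) also fell (log2 fold change -0.89, adjusted p = 0.0175), although its ranges met at 21.2 CPM in F4/80hi replicate 2 and 21.0 CPM in F4/80int replicate 1. Fabp7, a fatty acid binding protein, fell as well (-2.22, adjusted p = 0.0162).

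Of the 5 genes called higher, the scavenger receptor Marco had a log2 fold change of 1.98 (adjusted p = 0.0125), from means under 1 CPM. The complement component C6 was called from means under 1 CPM too, and it is named here only to complete the count. Slc40a1, the iron exporter ferroportin, had 1.09 (adjusted p = 0.0294). Cd163, the hemoglobin scavenger receptor, had 0.91 (adjusted p = 0.0768), and Cdh5, a cadherin of Kupffer and endothelial cells, had 0.65 (adjusted p = 0.0652). Both calls were lost with single libraries left out: Cd163 gave 0.57 without F4/80hi replicate 1, 0.90 without F4/80hi replicate 3, 0.81 without F4/80int replicate 2 and 0.73 without F4/80int replicate 3. Cdh5 gave 0.68 and 0.53 without F4/80hi replicates 1 and 2, and 0.48 and 0.58 without F4/80int replicates 1 and 3. The number called higher fell to 3 without F4/80hi replicate 1 or without F4/80int replicate 3.

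**Figure D2:**
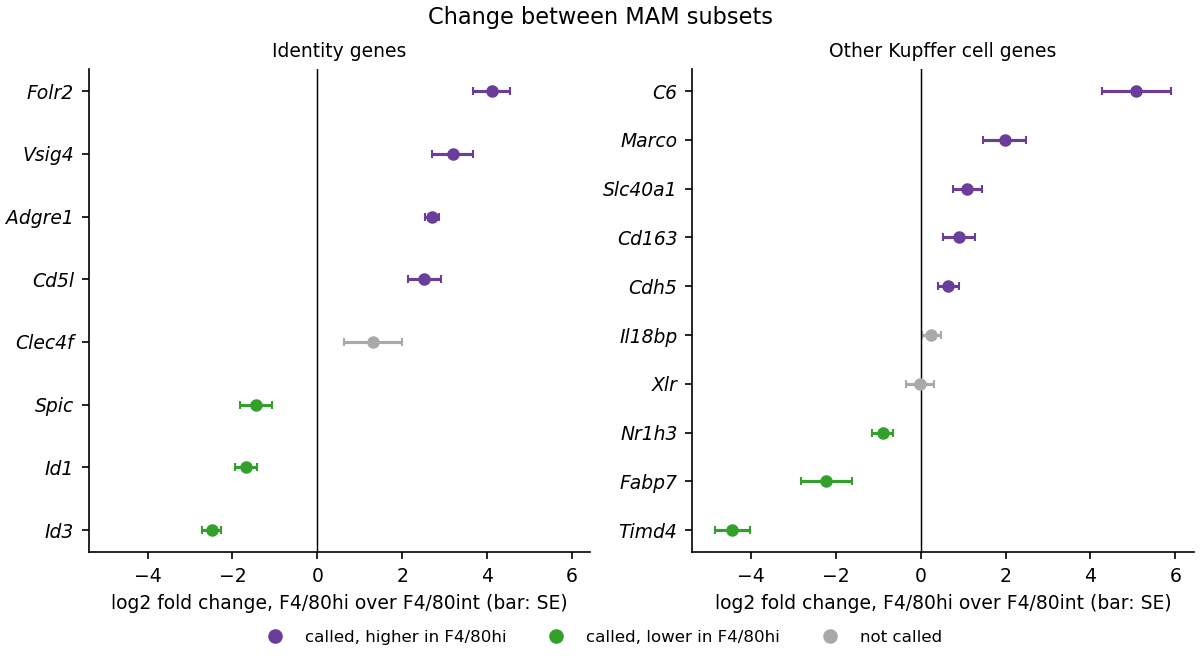
Log2 fold change of F4/80hi over F4/80int MAMs (points, with SE as bars) for the 8 identity genes and the 10 other Kupffer cell genes with a row, 3 libraries per subset. Folr2 at 4.11 and Timd4 at -4.44 point in opposite directions, and Clec4f at 1.32 has a wide error.

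F4/80hi replicate 2 was the highest of its group for 4 of the 8 identity genes (Clec4f, Vsig4, Cd5l and Id1). It was also the highest for 5 of the 10 other Kupffer cell genes (Marco, Cdh5, Nr1h3, Slc40a1 and Xlr). F4/80hi replicates 1 and 3 were highest for 1 and 3 of the identity genes, and for 3 and 2 of the others. The share of all genes highest in replicate 2 is not given here, so these counts are not read as a trait of that library. Relative to the mean of F4/80hi replicates 1 and 3, F4/80hi replicate 2 held 5.32 times the Clec4f, 2.11 times the Cd5l and 1.83 times the Vsig4. It was the lowest of its group for Folr2, at 55.1 CPM, and for Adgre1, at 806 CPM. The same library was highest for 4 of the 5 hepatocyte markers with a row, with 2.19 times the Alb and 3.52 times the Ahsg. F4/80int replicate 2 was the highest of its own group for the same 4 markers, but its 16 Clec4f reads lay between the 17 and 10 of the other F4/80int libraries. Alb measured 5.00, 6.84 and 1.23 CPM in F4/80hi MAMs and 1.74, 3.59 and 1.43 CPM in F4/80int MAMs. The part of hepatocyte or other carried-over RNA in the levels of Clec4f, Cd5l and Vsig4 was not tested.

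**Figure D3:**
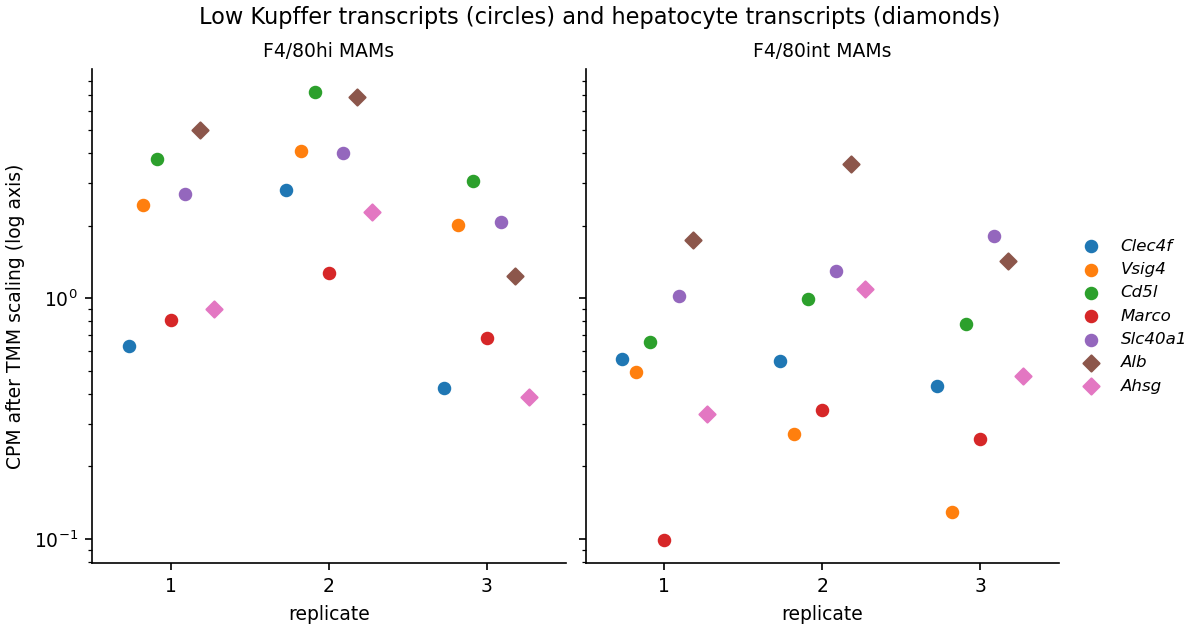
CPM after TMM scaling (log axis) of 5 Kupffer cell genes (circles) and the hepatocyte genes Alb and Ahsg (diamonds) in each MAM library. The 7 genes shown are all highest in replicate 2 of the F4/80hi panel, where Clec4f is at 2.80 CPM. Of the genes of the same lists that are not shown, Id1, Cdh5, Nr1h3, Xlr, Apoa1 and Fgb were also highest in F4/80hi replicate 2. Others were highest in F4/80hi replicate 1 (such as Id3 and Cd163) or replicate 3 (such as Folr2, Adgre1, Timd4 and Trf). The agreement of the genes shown is therefore no separate result.

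Lists around the identity genes held genes that rose and genes that fell. Over the 5 lists, 18 of 58 genes with a row were called higher and 22 lower, against 27.8% and 27.1% of all genes tested. Values in brackets are log2 fold changes with edgeR's adjusted p. Of 15 BMP and ALK1 genes with a row, 4 rose and 6 fell (median log2 fold change -0.12). The BMP receptor Bmpr1a (2.16, adjusted p = 0.00323), the ligand Bmp2 (1.34, adjusted p = 0.0222) and the signal transducer Smad5 (0.89, adjusted p = 7.28e-05) rose. The decoy receptor Bambi (-1.33, adjusted p = 0.00151), the inhibitor Smad7 (-1.04, adjusted p = 0.000242) and the target Id2 (-0.99, adjusted p = 0.00137) fell alongside Id1 and Id3. Acvrl1, the ALK1 receptor, was not called (-0.12, adjusted p = 0.449).

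In the Notch list, 1 of 11 genes rose and 6 fell (median -0.33). The coactivator Maml2 rose (1.34, adjusted p = 0.00300). The feedback gene Nrarp (-2.28, adjusted p = 0.00377) and the receptor Notch2 (-0.97, adjusted p = 0.000926) fell. Notch4, another receptor, was called at -0.80 (adjusted p = 0.0580), and the call was lost without F4/80hi replicate 1 (-0.72), F4/80hi replicate 3 (-0.80) or F4/80int replicate 3 (-0.35).

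Among 13 LXR factors and targets, 4 rose and 5 fell (median -0.25). The cholesterol exporter Abca1 (2.17, adjusted p = 0.000509), the lipid carrier Apoe (2.00, adjusted p = 0.000122) and the partner receptor Rxra (0.61, adjusted p = 0.00348) rose. Nr1h3, the related receptor Nr1h2 (-0.56, adjusted p = 0.000540) and the exporter Abcg1 (-0.63, adjusted p = 0.00473) fell. Targets of LXR were therefore found on both sides.

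Of 11 heme and SPI family genes, 2 rose and 4 fell (median -0.14). Besides Slc40a1, the biliverdin reductase Blvrb rose (1.17, adjusted p = 0.000552). With Spic fell its relatives Spib (-3.94, adjusted p = 0.000453, and -4.75 without F4/80hi replicate 1) and Spi1 (-0.56, adjusted p = 0.000669), and the heme-sensing repressor Bach2 (-1.47, adjusted p = 1.88e-05). Hmox1, the heme oxygenase, was not called and measured 575 CPM in F4/80int replicate 3 against 157 to 161 CPM in the other F4/80int libraries.

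Genes of resident macrophages of other organs rose in 7 of 8 cases, against 27.8% of all genes tested, with a median of 2.47. They include F13a1, which is also a classical monocyte marker, and Cd163, whose call was lost with single libraries left out. Gas6, a ligand of TAM receptors that bridges apoptotic cells (6.47, adjusted p = 2.74e-06), Cbr2 (5.34, adjusted p = 7.51e-06) and the hyaluronan receptor Lyve1 (3.05, adjusted p = 0.00138, and 2.42 without F4/80hi replicate 1) rose with Folr2. Timd4 was the 1 gene of this list that fell.

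**Figure D4:**
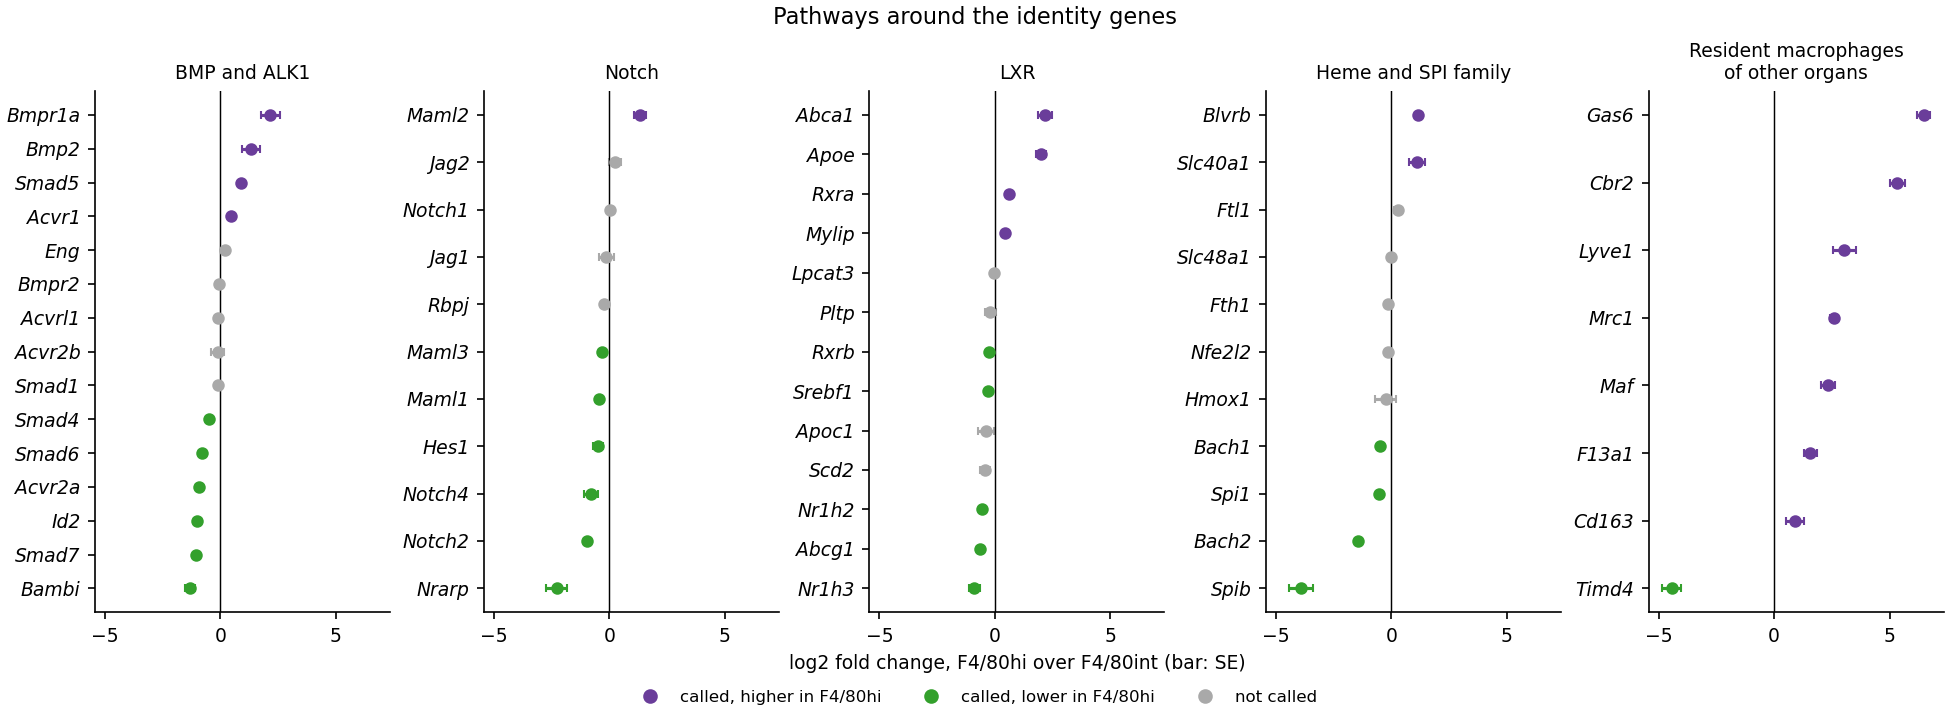
Log2 fold change of F4/80hi over F4/80int MAMs (points, with SE as bars) for 5 lists of genes around the Kupffer program, sorted within each list, 3 libraries per subset. Called genes lie on both sides of 0 in each panel, and in the panel of other organs 7 of 8 are higher in F4/80hi MAMs.

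Most markers of dendritic cells and of classical monocytes moved with the sorting gate. The counts of markers called, here and for the cell types below, stand beside 27.8% of all genes called higher and 27.1% lower. The 10 dendritic cell markers summed to at most 35.3 CPM in the F4/80hi libraries and to 504 to 874 CPM in the F4/80int libraries, and 9 of the 10 were lower in F4/80hi MAMs, led by Cd209a (-6.08), Ccr7 (-6.05, and -6.67 without F4/80hi replicate 1) and Flt3 (-5.69). Of the 10 classical monocyte markers, 9 were lower and F13a1 was higher, with sums of 954 to 1229 and 2362 to 2755 CPM. These groups of markers moved in the direction of Id1, Id3, Spic and Timd4, and their part in those falls was not tested.

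Of the 3 tumor epithelium markers with a row, Epcam (-5.78) and Cdh1 (-4.66), which some dendritic cells also express, were lower, while Krt8, Krt18 and Krt19 had no row. The list summed to 9.63 to 12.8 CPM in F4/80hi and 198 to 284 CPM in F4/80int MAMs. Neutrophil markers were lower for 5 of 6 genes. Their sums were 73.9 to 105 CPM in F4/80hi and 95.9 to 151 CPM in F4/80int MAMs, mostly Csf3r except in F4/80int replicate 1. That library, with the sum of 151 CPM, held 66.8 CPM of Csf3r and 51.4 CPM of Ngp. Ngp measured 1.30 and 5.06 CPM in the other F4/80int libraries. S100a8, a gene of neutrophils and monocytes, measured 21.0 CPM in F4/80int replicate 1 and 1.30 and 2.46 CPM in the other F4/80int libraries.

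In the direction of Folr2, Vsig4 and Cd5l, 1 of the 5 hepatocyte markers with a row rose (Trf, which macrophages also express), and the list summed to 365 to 728 CPM in F4/80hi and 214 to 245 CPM in F4/80int MAMs, mostly Trf, while Apoa2, Ttr, Serpina1a, Serpina1c and Cyp2e1 had no row. Platelet markers summed to 117 to 141 and 17.6 to 39.3 CPM, mostly Pf4, which rose by a log2 fold change of 3.14 (3.85 without F4/80int replicate 3). Of the 5 platelet markers with a row, 2 were higher and 2 lower (Itgb3 at -2.83 and Itga2b at -2.23). Gp9, Gp1ba, Gp1bb, Gp6 and Tubb1 had no row. The 8 sinusoidal endothelial markers had 2 higher and 4 lower, with sums of 481 to 670 and 553 to 768 CPM, mostly Fcgr2b, and Stab2 and Gpr182 had no row. Each of these sums rests mostly on 1 gene, so it does not show the amount of that cell type. The part of hepatocytes, platelets and endothelial cells in the levels of the identity genes was not tested.

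Of the 9 lymphocyte markers, 1 was higher and 2 lower, with sums of 21.3 to 40.7 CPM in F4/80hi and 10.5 to 35.3 CPM in F4/80int MAMs. The 4 globin genes were not called. Their sums ranged from 1.49 to 42.6 and from 2.08 to 100.1 CPM, and replicate 3 was the highest of both groups.

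The sorted lymphocytes, which are not macrophages, held a few reads of the Kupffer cell genes in MFL. Clec4f had 4, 40 and 5 reads in MFL NK cells and 4, 18 and 3 reads in MFL ILC1, 74 in all, and 0 reads in all 6 LM libraries. The level over the 6 MFL libraries, 0.980 CPM, was 20.9-fold the LM floor. This floor, 0.0469 CPM, is the 3 reads that a count of 0 allows over the 6 LM libraries. It covers the counting error of the LM reads, but not that of the MFL reads or the spread between libraries. Cd5l had 90 reads over the MFL libraries, Adgre1 39, Vsig4 21 and Folr2 6, and each had 0 in LM. These levels were 25.4-fold, 11.0-fold, 5.92-fold and 1.69-fold the LM floor. Such folds are no lower limits where MFL reads are few, as for Folr2. Clec1b and Spic each had 1 read, in MFL. Reads of Clec4f were present in 6 of 6 MFL libraries, of Cd5l in 4, of Vsig4 in 3 and of Adgre1 and Folr2 in 2. Fewer genes were detected in LM libraries, 10406 to 14584 against 12744 to 17137 in MFL libraries, and the part of this in the reads at 0 was not tested.

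Of the 14 other Kupffer cell genes, 10 had reads in MFL and 0 in LM, among them Cd163 with 77 reads, Cdh5 with 68, Timd4 with 41 and Marco with 9, and 1 had no reads. The remaining 3 were read at both sites, with 562 reads in MFL and 182 in LM for Il18bp, 28 and 12 for Nr1h3, and 26 and 9 for Xlr. The reads were uneven within MFL. MFL NK replicate 2 held 40 of the 74 Clec4f reads, and the level of Clec4f without it was 11.7-fold the LM floor. MFL ILC1 replicate 2 held 33 of the 39 Adgre1 reads, and without it the level was 2.07-fold the floor. MFL ILC1 replicate 3 held 11 of the 21 Vsig4 reads, without which the level was 3.28-fold the floor. It also held 4 of the 6 Folr2 reads, without which Folr2 was under the floor. MFL NK replicate 1 held 39 of the 41 Timd4 reads. Whether the reads came from macrophages in the sort or from free RNA was not tested.

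Id3 and Id1 did not follow that division. Among LM cells, Id3 had 176, 61 and 0 reads in the CD49a+ and 0, 2 and 0 reads in the CD49a- NK libraries. Among MFL cells, it had 0, 9 and 5 reads in NK libraries and 0, 45 and 18 in ILC1. Id1 had 14 reads in LM, 13 of them in LM CD49a- NK replicate 3, and 6 in MFL. Libraries of a group thus differed widely for both genes.

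**Figure D5:**
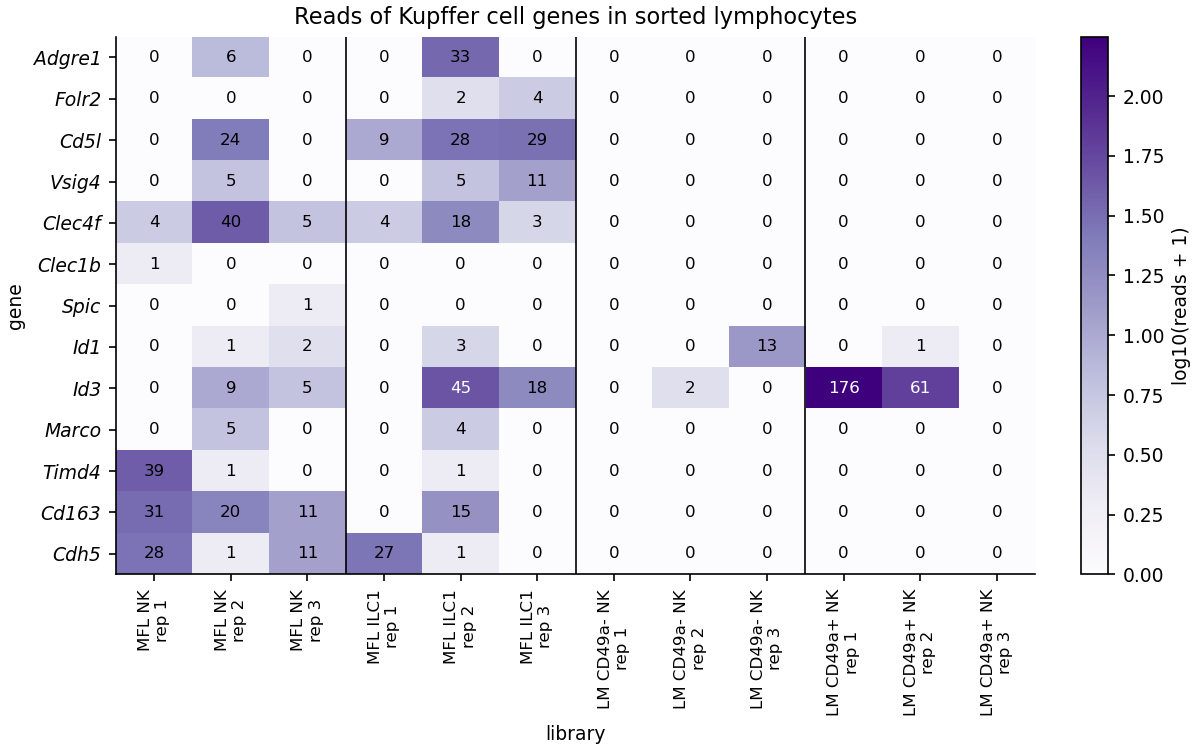
Reads of the 9 identity genes and of 4 other Kupffer cell genes in the 12 lymphocyte libraries, with the read number in each cell and log10(reads + 1) as color. Clec4f, Cd5l, Vsig4, Adgre1 and Folr2 have reads in MFL and 0 in all LM libraries, and Id3 peaks at 176 reads in LM CD49a+ NK replicate 1.

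Of the identity genes, Cd5l and Id3 passed the filter on low counts in the lymphocytes, and neither was called by edgeR in either comparison. Between LM CD49a- and MFL NK cells, Cd5l had an adjusted p of 0.761 and Id3, with a log2 fold change of -2.11 (SE 2.40), 0.979. Over all 13594 genes 0.0736% were called in this comparison, and 914 had an unadjusted p under 0.05. Between MFL ILC1 and MFL NK cells, where 3.06% of genes were called, Cd5l had a log2 fold change of 1.63 (SE 2.38) and Id3 of 2.24 (SE 2.33), each with an adjusted p of 1. The number of these genes with an unadjusted p under 0.05 was 0 in both comparisons with edgeR and with DESeq2, and 0 and 1 with limma-voom. A fit with no filter on low counts included all 9 genes and called 0 of them in both comparisons. MFL NK replicate 2 held all 24 reads of Cd5l in the MFL NK and LM CD49a- NK libraries.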

How the data were processed

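Bulk RNA-seq was analyzed in 6 MAM libraries (poly(A)-selected, directional) and 12 lymphocyte libraries (stranded total RNA). The authors deposited estimated counts that were not normalized, for 13759 genes with a lowest row total of 37 for the MAMs and 54309 for the lymphocytes. The submitters' processing notes name Trim Galore, Salmon (1.10.0 for MAMs, 1.5.0 for lymphocytes) and GRCm39. Counts were rounded to whole numbers and named from GENCODE vM39. Library totals were 21278959 to 32267015 for the MAMs and 8795721 to 14386834 for the lymphocytes.

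Genes were kept by filterByExpr (13759 and 13594), scaled by TMM and fitted in edgeR, 1 model per table, with the quasi-likelihood test, Benjamini-Hochberg adjustment and calls at an adjusted p under 0.1. With 3 libraries against 3, an exact two-sided permutation test cannot go below 0.1. The SE of a log2 fold change is its size over the square root of F. A fold against a group at 0 was computed against 3 counts over that group. Tools were R 4.3.3, edgeR 4.0.16, limma 3.58.1, DESeq2 1.42.0, Python 3.11.15 and matplotlib 3.10.9. The scripts were tested on simulated counts.

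The genes and lists were chosen with earlier results of these data known, and 1 gene of the resident macrophage list is not reported here. Named were the identity genes, Timd4, Marco, Cdh5 and Nr1h3, and per list up to 3 called genes in each direction with a mean of at least 1 CPM in the higher group, and marker genes at 100 CPM or more in any library. Not every gene that this rule allows is printed, and genes outside it were chosen after their values were seen. Alternatives were DESeq2, limma-voom, RLE scaling, other filters, a threshold of 0.05, a replicate block and each library left out. Leaving MFL libraries out of the read sums was chosen after seeing the data.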

Additional observations from a re-analysis of the deposited data

Results flagged for a closer look

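The LM CD49a+ NK libraries entered no comparison of the identity genes, and 2 of them held more Id3 than any library of MFL NK cells or LM CD49a- NK cells. Id3 measured 17.0 CPM in LM CD49a+ NK replicate 1 and 4.76 CPM in replicate 2, against 0 in replicate 3. The highest value among MFL NK and LM CD49a- NK libraries was 0.663 CPM, and MFL ILC1 replicate 2 had 3.29 CPM. The difference was not tested.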

How the results depend on the processing

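Over 13 alternatives, the 7 called identity genes kept their direction and stayed under an adjusted p of 0.1, and Clec4f was called only without F4/80hi replicate 3. The highest adjusted p of the called genes was 0.0425, for Spic. The number of other Kupffer cell genes called higher, 5, was 3 with a filter of 1 CPM in 3 libraries (which tested 7 of them) and 3 at an adjusted p under 0.05, and ranged from 3 to 5 with 1 library left out. Of 830 alternative values for the MAMs, 808 kept their direction and side of the threshold, 21 fell short of it and 1 newly passed it. Part of that agreement was fixed in advance. For the MAMs, the setting without a filter kept the same 13759 genes and repeated the main fit, and the threshold of 0.05 reused its fold changes. Many of the genes were also named because the main fit called them. The log2 fold change of Cd5l between LM CD49a- and MFL NK cells lay between -6.37 and 0 with 1 library left out, and was 0 without MFL NK replicate 2, which held all its reads in those groups. In the lymphocytes no alternative called an identity gene. Calls over all genes between LM CD49a- and MFL NK cells numbered 10 with edgeR, 162 with DESeq2 and 104 with limma-voom, and between MFL ILC1 and MFL NK cells 416, 669 and 2645. Replicate numbers did not pair the samples (correlations of 0.172, -0.015 and 0.027 in the MAMs). With a replicate block, 4 identity genes were called higher and 3 lower, over all genes 3791 higher and 3721 lower against 3821 and 3734 without it, and 0 identity genes in the lymphocytes. Low read numbers limit Clec4f and Spic.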
